A study of Mus musculus with 2 samples.

Results

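Of 9179 regions of the mouse genome where both ChIL-seq libraries for Hnf4a placed a peak summit, 846 lay outside every protein-coding gene with the nearest gene end more than 1 kb and at most 10 kb away. They were chosen by pooling the summits of both libraries on chromosomes 1 to 19 and X, chaining neighbours no more than 100 bp apart, keeping chains with a summit of each library and taking the midpoint. The 846 made up 9.22% of the shared regions (95% exact binomial interval 8.63 to 9.83, counting error only), and since position chose them, this share is a description. The cells were iHepCs, hepatocyte-like cells made from wild-type C57BL/6J mouse embryonic fibroblasts by retroviral delivery of Foxa2 and Hnf4a. Both libraries carried the introduced factors and belonged to the 1 group of the study, with no comparison group, so nothing could be set against cells without them. The medium contained 100 nM dexamethasone, 20 ng/ml hepatocyte growth factor and 20 ng/ml epidermal growth factor. The series text calls the libraries biological replicates, and their peak names carry the same lot of cells. The deposited lists held 21283 summits for replicate 1 and 24097 for replicate 2; read depth is not known from them. The summits are single bases of build mm10, and beside each the authors give a score, the −log10 of the peak's q-value. Summits record where the factor was placed, not which genes were transcribed, so the labelled cell type could not be set against marker genes.

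Hnf4a is a nuclear receptor that binds DNA as a homodimer at direct repeats of a hexamer, and in liver it controls genes for plasma proteins, lipoproteins, bile acid and drug metabolism. Foxa2 is a forkhead factor that can open closed chromatin at liver enhancers. In ChIL-seq, an antibody-linked probe guides the Tn5 transposase, which inserts a T7 promoter near the factor so that RNA polymerase can copy the neighbouring DNA inside the fixed cell. Sequence a few kb outside a gene can hold proximal enhancers, insulators and promoters of non-coding genes.

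At 9 of the 846 regions, the midpoint fell within the RefSeq start window of a non-coding transcript. Each window holds 300 bases (250 before and 50 after the start, GRCm38.p6, the assembly of mm10). Only midpoints in such windows are counted. Not in this count were regions close to small RNA genes, such as that nearest to Abt1, 5 bp from an end of the tRNA gene n-TVcac2. Another, nearest to Rdm1, was 16 bp from an end of the snRNA gene Gm23971. All 9 transcripts were long non-coding RNAs. They were Gm30153 (nearest coding gene Cdk18), Gm33560 (Ano9), Gm30611 (Fetub), Gm15889 (Herpud1), Snhg7 (Dipk1b), 5530601H04Rik (Pbdc1), Gm39228 (Mt1), B930059L03Rik (Ppp2r5c) and Kantr (Tspyl2). Sequence was read for these members only. Printed here are the 3 windows that held an AP-1 motif and the other window that held the HNF4 core with free bases, picked after the motifs were found. They run 5′ to 3′ on the strand of the non-coding gene, which starts at base 251, and capitals mark every match to the motifs searched.
Gm30611 (chr16:22912966-22913265, minus strand): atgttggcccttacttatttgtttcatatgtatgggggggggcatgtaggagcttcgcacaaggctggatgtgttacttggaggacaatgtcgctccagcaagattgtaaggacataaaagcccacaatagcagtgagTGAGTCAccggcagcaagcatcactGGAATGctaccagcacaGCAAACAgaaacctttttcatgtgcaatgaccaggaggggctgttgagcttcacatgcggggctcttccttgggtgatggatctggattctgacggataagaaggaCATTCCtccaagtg
Gm30153 (chr1:132145177-132145476, minus strand): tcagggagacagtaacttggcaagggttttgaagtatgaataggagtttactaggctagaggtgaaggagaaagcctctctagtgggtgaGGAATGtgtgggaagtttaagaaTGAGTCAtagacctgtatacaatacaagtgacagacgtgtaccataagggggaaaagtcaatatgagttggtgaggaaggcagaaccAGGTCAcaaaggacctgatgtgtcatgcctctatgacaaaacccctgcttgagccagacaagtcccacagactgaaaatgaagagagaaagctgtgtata
B930059L03Rik (chr12:110591124-110591423, plus strand): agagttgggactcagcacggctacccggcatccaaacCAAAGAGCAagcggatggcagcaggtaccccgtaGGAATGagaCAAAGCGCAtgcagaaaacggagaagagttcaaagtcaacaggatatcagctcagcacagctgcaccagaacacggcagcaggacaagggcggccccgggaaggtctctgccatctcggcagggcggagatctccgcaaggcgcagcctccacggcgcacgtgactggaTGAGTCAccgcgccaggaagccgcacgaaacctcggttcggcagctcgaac
Gm33560 (chr7:141122981-141123280, plus strand): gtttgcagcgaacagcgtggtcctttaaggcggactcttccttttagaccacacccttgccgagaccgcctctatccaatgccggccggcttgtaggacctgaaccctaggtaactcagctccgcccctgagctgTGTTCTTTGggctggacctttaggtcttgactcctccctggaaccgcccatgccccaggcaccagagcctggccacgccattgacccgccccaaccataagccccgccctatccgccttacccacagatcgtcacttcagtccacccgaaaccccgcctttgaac

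Gm30611 starts 52 bases from the midpoint of a region 5315 bp before the start of Fetub, which encodes fetuin-B, a plasma protease inhibitor made by hepatocytes. This region scored 19.2 in replicate 1 and 9.60 in replicate 2. The replicate 1 summit fell at base 182 of its window, within a FOX match at bases 181 to 187, and the replicate 2 summit at base 216. A separate region 2436 bp past the end of Fetub, on the side of Hrg, scored 17.6 in replicate 1 and 5.60 in replicate 2, so both Fetub regions scored higher in replicate 1.

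At Gm30153, 5629 bp before the start of the cyclin-dependent kinase gene Cdk18, the scores were 29.9 in replicate 1 and 22.0 in replicate 2. Its summits stood at bases 133 and 167, past the AP-1 match at bases 114 to 120. At B930059L03Rik, 8332 bp past the end of Ppp2r5c, which encodes a regulatory subunit of protein phosphatase 2A, the scores were 7.52 in replicate 1 and 6.29 in replicate 2. The AP-1 match there lay 28 bases from the midpoint, and the replicate 2 summit lay just past the end of the window. A further region 4788 bp before the start of Ppp2r5c scored 18.5 and 14.4. At Gm33560, 5413 bp from the anoctamin gene Ano9, the scores were 46.3 and 20.0, with summits at bases 238 and 241, which are 3 bp apart.

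The motifs searched on both strands were the HNF4 core CAAAGTCCA, the same core with 2 free bases CAAAGNNCA, the nuclear receptor half-site AGGTCA, the FOX cores TGTTTAC and TGTTTGC, the AP-1 site TGACTCA, the C/EBP core TTGCNNAA and the TEAD core GGAATG. Every CAAAGTCCA is also a CAAAGNNCA. The AP-1 site was present in 3 of the 9 windows, against 5.20% of all 32851 RefSeq start windows and 5.10% of the 1176 that held the midpoint of any shared region. The TEAD core was present in 5 of 9, against 14.7% and 12.3%, and the HNF4 core with free bases in 2 of 9, against 6.36% and 4.85%. The half-site and TGTTTGC were present in 1 window each, and CAAAGTCCA, TGTTTAC and TTGCNNAA in 0 of 9. The 9 windows were all of long non-coding RNA genes, whereas neither comparison set was limited to such genes. The RefSeq windows include starts of protein-coding genes, and the part of gene type in these shares was not tested. With 9 windows, these are descriptions of single sites and not of the 846.

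Regions also lay beside microRNA genes, found by taking every annotated hairpin within 500 bp. The hairpin of Mir210, a microRNA known for its induction by low oxygen, was 372 bp from a region nearest to Rassf7 that scored 3.99 in replicate 1 and 5.25 in replicate 2. The hairpin of Mir6347 was 260 bp from a region nearest to Uck2 that scored 8.64 and 9.80. The mature RNAs from RefSeq are shown with the seed, bases 2 to 8, in capitals, since the seed sets which messages a microRNA pairs with; no seed was shared.
mmu-miR-210-3p: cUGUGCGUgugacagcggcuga
mmu-miR-210-5p: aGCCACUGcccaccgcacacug
mmu-miR-6347: cAGUGCGGcuggcuggagaugc

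The first question was how densely these regions filled the sequence around genes. Positions 1 to 10 kb outside protein-coding genes covered 215.9 Mb, and the 846 regions came to 3.92 per Mb of it. Gene interiors more than 1 kb from an end held 3.73 shared regions per Mb, and the sequence within 1 kb of a gene end held 21.7 per Mb. The single lists gave the same order. Replicate 1 placed 9.16 summits per Mb in the 1 to 10 kb band against 8.90 in gene interiors and 46.5 at gene ends, and replicate 2 placed 10.6, 10.2 and 46.5. The band's mean over both lists was 9.88 ± 1.02 (SD, n = 2) summits per Mb and that of gene interiors 9.57 ± 0.938. The band was slightly denser than gene interiors within each library, but for shared regions its interval holds the 3.73 of interiors. These SDs hold the difference in list length that both areas share.

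Within the band, the density was 4.62 regions per Mb from 1 to 2 kb (95% Poisson interval 3.91 to 5.44, counting error only), 4.11 from 2 to 3 kb and 3.79 from 5 to 10 kb (3.42 to 4.18), with overlapping intervals. Just inside the first kb outside genes, it was 30.4 per Mb (28.6 to 32.3). The median distance from the nearest gene end was 4739 bp, with quartiles of 2500 and 7262 bp.

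Strand, which the choice of regions did not use, was known for the nearest gene of 645 of the 846 regions. Of these, 357 lay on the start side of the gene and 288 on the end side, or 55.3% on the start side (95% exact interval 51.4 to 59.2). The start side held 53.1% of the bases of the band whose nearest gene had a strand. The single lists gave 54.9% in replicate 1 and 53.8% in replicate 2 (54.3% ± 0.787, SD, n = 2). With non-coding genes counted as well, 49.7% of the regions so chosen lay on the start side. By contrast, 93.5% of shared regions in the first kb outside genes lay on the start side (91.6 to 95), where promoters are.

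Per Mb, the start side held 58.9 shared regions in the first kb, 5.19 from 1 to 2 kb (4.02 to 6.59) and 3.71 from 2 to 10 kb (3.29 to 4.16). The end side held 4.12 in the first kb, 4.24 from 1 to 2 kb (3.17 to 5.56) and 3.45 from 2 to 10 kb (3.03 to 3.92). Beyond 1 kb the intervals of both sides overlap. Scores had medians of 9.99 in replicate 1 and 9.45 in replicate 2 on the start side, and 9.66 and 9.43 on the end side.

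**Figure D1:**
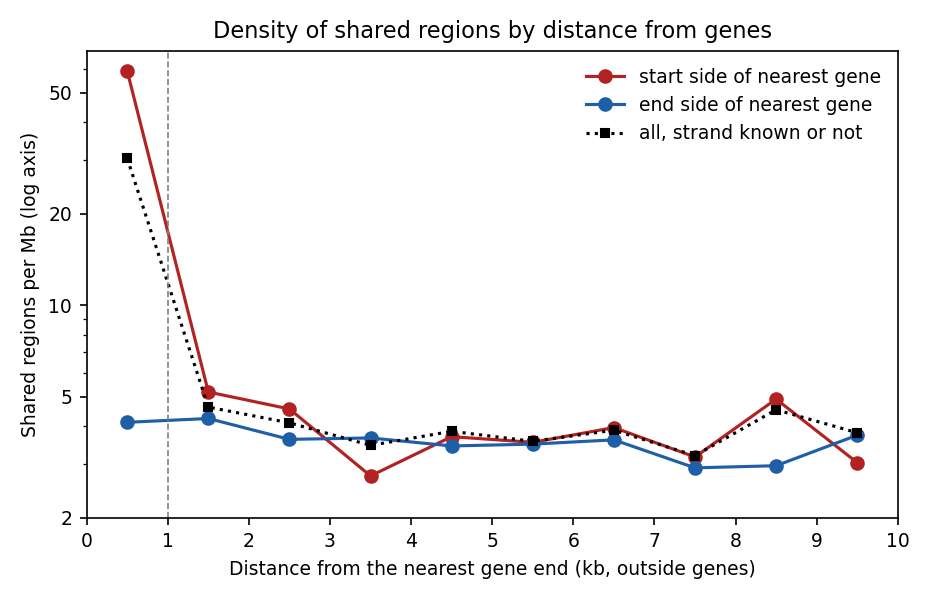
Shared regions per Mb (log axis) in bins of 1 kb by distance from the nearest protein-coding gene end, outside genes, for the start side and end side of the nearest gene and for all regions; the dashed line at 1 kb is the inner limit of the band. The start side falls from 58.9 per Mb in the first kb to 5.19 in the next. The end side begins at 4.12, has 4.24 in the next kb and lies between 2.92 and 3.74 beyond 2 kb.

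Non-coding genes, which the choice ignored, ran through part of the band. Of the 846 regions, 136 (16.1%) lay inside a non-coding gene, 126 of them in a long non-coding RNA gene. Within 1 kb of the end of a non-coding gene lay 106 (12.5%). Over all shared regions these shares were 12.1% and 7.16%. Shared regions over 10 kb outside coding genes had 21.6% inside a non-coding gene. Those at coding gene ends had 12.9% within 1 kb of a non-coding gene end. Near non-coding gene ends the band held 8.05 regions per Mb, against 3.65 per Mb elsewhere in the band. The single lists gave 17.6 and 17.7 summits per Mb near non-coding ends (17.7 ± 0.0537, SD, n = 2) against 8.61 and 10.1 elsewhere (9.37 ± 1.08), so that sequence near non-coding ends was denser within each library. Inside non-coding genes the density was 5.12 regions per Mb, against 3.75 outside them.

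**Figure D2:**
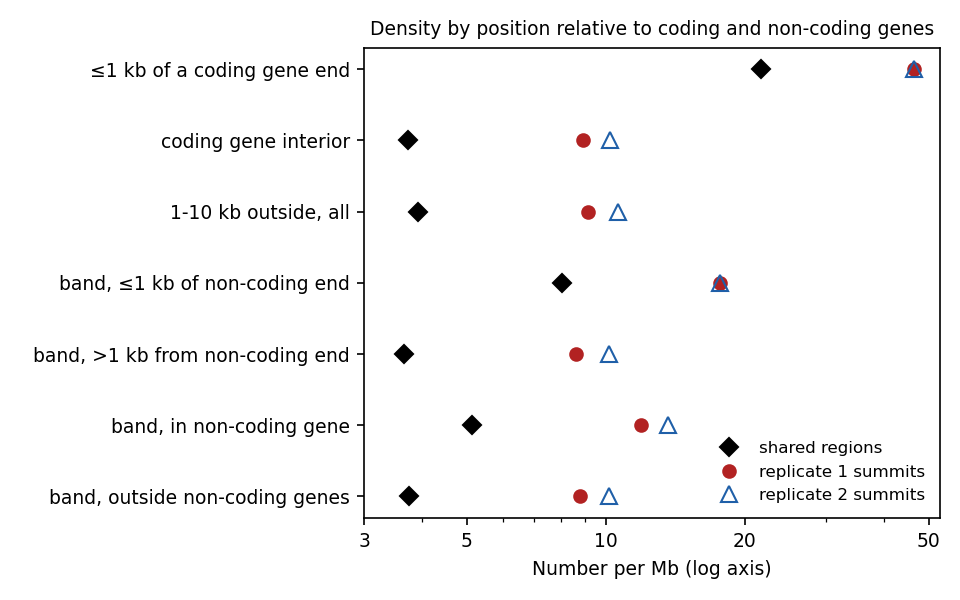
Number per Mb (log axis) of shared regions (diamonds), replicate 1 summits (circles) and replicate 2 summits (triangles) in sequence grouped by its position relative to protein-coding and non-coding genes; the band is the sequence 1 to 10 kb outside coding genes. The band as a whole, at 3.92 shared regions per Mb, sits beside coding gene interiors at 3.73, and its part within 1 kb of a non-coding gene end stands higher, at 8.05.

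The second question was how strong the regions were. Scores ran from 2.44 to 59.2 in replicate 1 (median 9.75, quartiles 7.17 and 14.6) and from 2.25 to 65.9 in replicate 2 (median 9.51, quartiles 6.58 and 14). All shared regions had medians of 9.93 and 9.61, and those at gene ends 10.2 and 9.78. The median over every summit of a list was 7.32 in replicate 1 and 6.67 in replicate 2. Shared regions were also ordered by the worse of their ranks in the replicates, and of the first 500 in that order 47 were members (9.4%), against 9.22% of all.

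Replicates ordered the regions alike in part. Spearman's rho between both scores was 0.606 over the 846 regions, which share their 2 libraries and are not replicates; it was 0.586 over all shared regions. Scores were within 2-fold in 743 regions (87.8%), and 454 were higher in replicate 1 and 392 in replicate 2. The score exceeded 20 in both replicates for 60 regions and was under 5 in both for 9. Both summits were a median of 32 bp apart and fell within 10 bp of each other in 174 regions. Score bore little relation to distance from the gene (rho 0.0071 in replicate 1 and 0.012 in replicate 2).

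**Figure D3:**
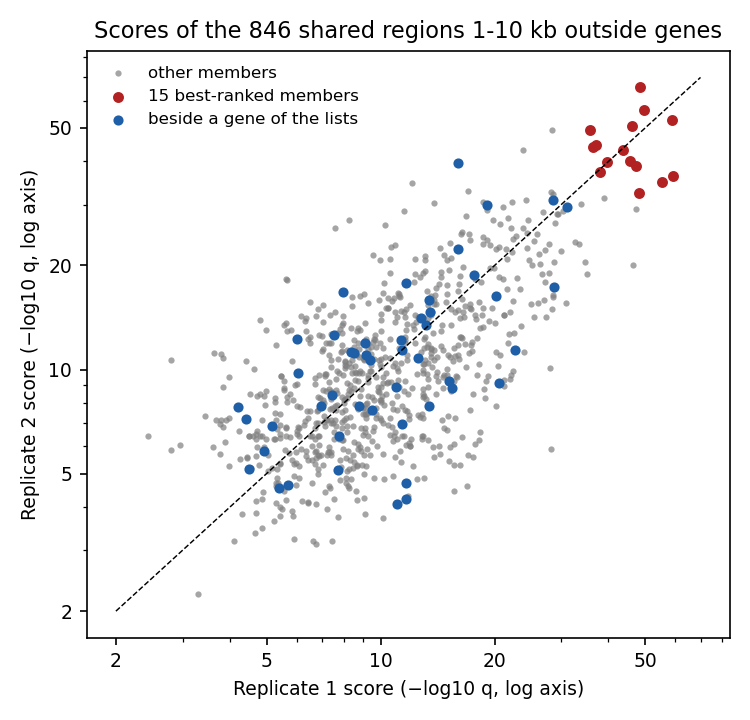
Score (−log10 q, log axes) of each of the 846 regions in replicate 1 and replicate 2, with the 15 best-ranked in red and other regions beside a gene of the lists in blue; the dashed line marks equal scores. The 15 best-ranked sit above 32 in both replicates, and the points beside list genes spread through the whole cloud.

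The best-ranked region, by the worse of its ranks in both replicates among all shared regions, lay 4510 bp from Meiob, which encodes a DNA-binding protein of meiotic recombination, and scored 49.6 in replicate 1 and 56.4 in replicate 2. The next lay 7365 bp past the end of Tra2a, a splicing regulator, with 58.8 and 52.8. The region 3562 bp from Atp4b, a subunit of the gastric proton pump, had the highest replicate 2 score of all members, 65.9, with 48.4 in replicate 1. It also lies within 10 kb of Tfdp1, which encodes the dimerisation partner of E2F factors.

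Nfib, a nuclear factor I transcription factor, had 2 members. That at 4404 bp scored 46.1 in replicate 1 and 50.7 in replicate 2, and that at 6355 bp scored 14.5 and 11.7. Sap30, a subunit of the Sin3 histone deacetylase complex, had a region 2192 bp before its start that scored 43.8 and 43.1, the closest agreement among the first 5. Hsd17b2, which inactivates sex steroids, had a region at 5196 bp with 45.7 and 40.2, and Slc22a6, an organic anion transporter of kidney, had one 2771 bp past its end with 37.9 and 37.3.

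Cx3cl1, which encodes the chemokine fractalkine, had the highest replicate 1 score of all members, 59.2, but 36.4 in replicate 2, at 3220 bp past its end. A further member 5865 bp past its end scored 13.8 and 15.5. Dsg2, a desmosomal cadherin of epithelia, had a region at 5333 bp that scored 36.5 in replicate 1 and 44.0 in replicate 2. The region between Tuba8, an alpha tubulin, and Pex26, a peroxisome biogenesis factor, had both summits on the same base and scored 55.2 and 35.0. The other 5 of the first 15 lay beside Rdm1, Pmfbp1, Dthd1, Gm46240 and Rbm43, with scores from 35.8 to 48.1 in replicate 1 and from 32.4 to 49.3 in replicate 2. In every one of the 15, both scores stood above 32, and the worse ranks ran from 59 to 218 of 9179.

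**Figure D4:**
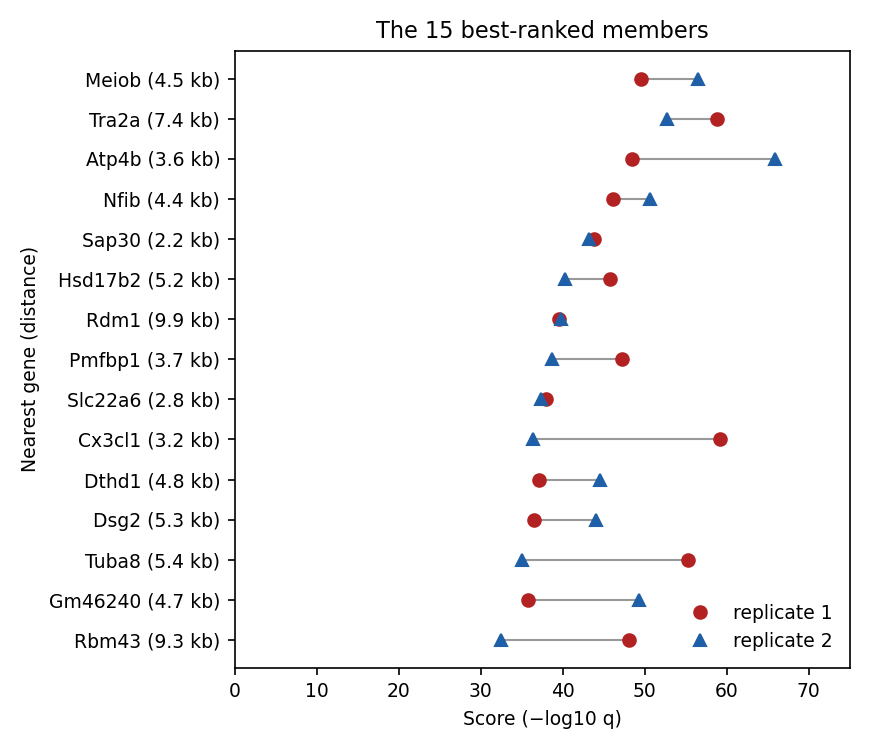
Score (−log10 q) in replicate 1 (circles) and replicate 2 (triangles) of the 15 best-ranked regions, named by nearest protein-coding gene and its distance. The gap is widest at Cx3cl1 (59.2 and 36.4) and Tuba8 (55.2 and 35.0), with replicate 1 higher, and narrowest at Rdm1 (39.6 and 39.7).

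The third question was which genes the regions stood beside. The 846 regions had 782 different nearest genes, 3.62% of 21631 protein-coding genes; 721 had 1 region, 58 had 2 and 3 had 3. Of 571 different genes in 21 lists, which were chosen with earlier results of these data known, 45 were the nearest gene of a region (7.88%). Lists hold 12 to 50 genes, so 1 gene moves a share by 2 points or more, and no test was run on them.

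Among genes for plasma proteins, 5 of 50 (10.0%) had a region, against 7.88% of all list genes and 3.62% of all genes. Housekeeping genes had 11.5%, intestinal genes 13.6% and stellate cell genes 16.7%, while hepatocyte transcription factor genes had 6.67%. The fetal plasma protein gene Afp had the best by worse rank, 2405 bp before its start at 90488309 on chromosome 5, with 28.5 in replicate 1 and 30.9 in replicate 2 and summits 4 bp apart. Fga, a fibrinogen chain, had a region 5503 bp before its start, with Fgg also within 10 kb, that scored 28.8 and 17.3. Fgb, another fibrinogen chain, had one 2248 bp past its end that scored 7.70 and 5.11. Replicate 1 was higher at both fibrinogen regions. Trf, the iron carrier transferrin, had a region at 4252 bp with 4.21 and 7.79. The list's remaining gene, Tat, encodes tyrosine aminotransferase, an amino acid enzyme rather than a plasma protein, and its region 7233 bp before its start scored 11.7 and 4.23.

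In the lipoprotein list, 3 of 28 genes had a region. Angptl4, an inhibitor of lipoprotein lipase, had one at 7261 bp that scored 19.1 in replicate 1 and 29.9 in replicate 2. Apoc1, an apolipoprotein, had one at 3976 bp with 6.06 and 9.79, in a cluster where Apoc2 and Apoc4 also lie within 10 kb. Scarb1, the HDL receptor, had one at 8733 bp with 11.7 and 4.70. Replicate 2 was higher at Angptl4 and Apoc1, and replicate 1 at Scarb1.

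Of hepatocyte transcription factor genes, 2 of 30 had a region. Cebpa, a regulator of hepatocyte differentiation, had one 5428 bp past its end that scored 12.6 in replicate 1 and 10.8 in replicate 2, and Foxa3, a forkhead factor of liver, had one 2417 bp past its end that scored 11.4 and 6.94. In bile acid genes, 2 of 23 had one. Abcc4, an export pump, had a region 1953 bp before its start with 20.2 and 16.3, its summits 1 bp apart, and Baat, which conjugates bile acids, had a region at 2944 bp with 13.4 and 15.9. Cth, an enzyme of cysteine synthesis, was the only gene of 32 in glucose, amino acid and urea metabolism, at 9931 bp with 9.11 and 11.9. Gsta1, a glutathione transferase, was the only gene of 33 in xenobiotic metabolism, with a region on each side, 4023 bp before its start (8.35 and 11.2) and 1987 bp past its end (9.35 and 10.7). None of the 28 genes of fatty acid oxidation and synthesis had one, though 11 of them had a shared region inside the gene or within 1 kb of it.

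In epithelial junctions and keratins, 5 of 37 genes had a region. Besides Dsg2, these were Gjb1, the main connexin of hepatocytes, with 20.6 in replicate 1 and 9.12 in replicate 2 at 5624 bp before its start and 13.5 and 14.6 at 3420 bp past its end. Pkp2, a desmosomal plaque protein, had one at 3393 bp (11 and 8.91), Cldn2, a claudin, 1544 bp before its start (8.76 and 7.82), and Esrp2, an epithelial splicing regulator, at 1118 bp (11 and 4.09). Dsg2 stood well above the others in both replicates, and Gjb1 before its start in replicate 1 only.

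Bile duct and progenitor genes had 2 of 19, Cd24a (11.3 in replicate 1 and 12.2 in replicate 2) and the keratin gene Krt23 (9.18 and 11). Intestinal genes had 3 of 22, namely the fatty acid carrier gene Fabp2 at 6447 bp before its start (22.7 and 11.4), the transcription factor gene Klf4 at 9040 bp (12.8 and 14.1) and the intestinal regulator Cdx2 at 1928 bp past its end (6.94 and 7.85).

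Fibroblast and mesenchyme genes, which mark the starting cells, had 2 of 30. Zeb2, a repressor of epithelial genes, had a region 6090 bp past its end that scored 11.4 in both replicates. Sparc, a matrix protein, had one 8117 bp before its start with 7.98 and 16.8. Stellate cell genes had 2 of 12, Des (15.5 and 8.83) and Ecm1, whose 2 regions scored 6.03 and 12.3, and 5.41 and 4.55. Blood and endothelial genes had 3 of 24, among them Tal1 (15.2 and 9.26) and Itgam (4.92 and 5.81), the latter low in both replicates. Genes of neurons and glia had 0 of 21, and Hox and other patterning genes 0 of 34.

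Of genes in the p53 pathway and cell-cycle control, 5 of 24 had a region. Mdm4, an inhibitor of p53, had one 3591 bp before its start that scored 13.2 in replicate 1 and 13.5 in replicate 2. The midpoint of this region was 144 bp from an end of the tRNA gene n-TKctt26. Mdm2, the ubiquitin ligase of p53, had one 7033 bp before its start with 13.5 and 7.83. The other regions were at Sesn2 (11.7 and 17.8), Cdkn1b (9.50 and 7.64) and Btg2 (4.42 and 7.20). At Sesn2 the midpoint was 5272 bp from the gene and 280 bp from an end of the tRNA gene n-TAagc8. Shared regions near this list and near plasma protein genes had been counted in an earlier look at these data, so these counts are not independent of it.

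Genes induced by glucocorticoids, of which dexamethasone in the medium is one, had 4 of 20. Klf9, a transcription factor, had a region 6376 bp before its start that scored 16.0 in replicate 1 and 39.5 in replicate 2, a wide gap. Mt1, a metallothionein, had one 2926 bp past its end, at the start of Gm39228, with 7.77 and 6.43. The remaining 2, Angptl4 and Tat, are those described above, with replicate 2 higher at Angptl4 and replicate 1 higher at Tat.

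AP-1 and Hippo-YAP genes had 2 of 31, Tead4 at 1085 bp (17.7 and 18.8) and Fosb at 1329 bp past its end (5.71 and 4.64). HGF, EGF and Wnt signalling had 2 of 39, the receptor gene Erbb3 (7.54 and 12.6) and the adaptor gene Grb2 (5.16 and 6.89). Oxygen sensing and VEGF genes had 0 of 20. Housekeeping genes had 3 of 26, among them Ywhaz, a 14-3-3 protein gene, at 8337 bp (16.1 and 22.4) and Rab7, a GTPase of late endosomes, 6135 bp past its end (8.50 and 11.2).

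**Figure D5:**
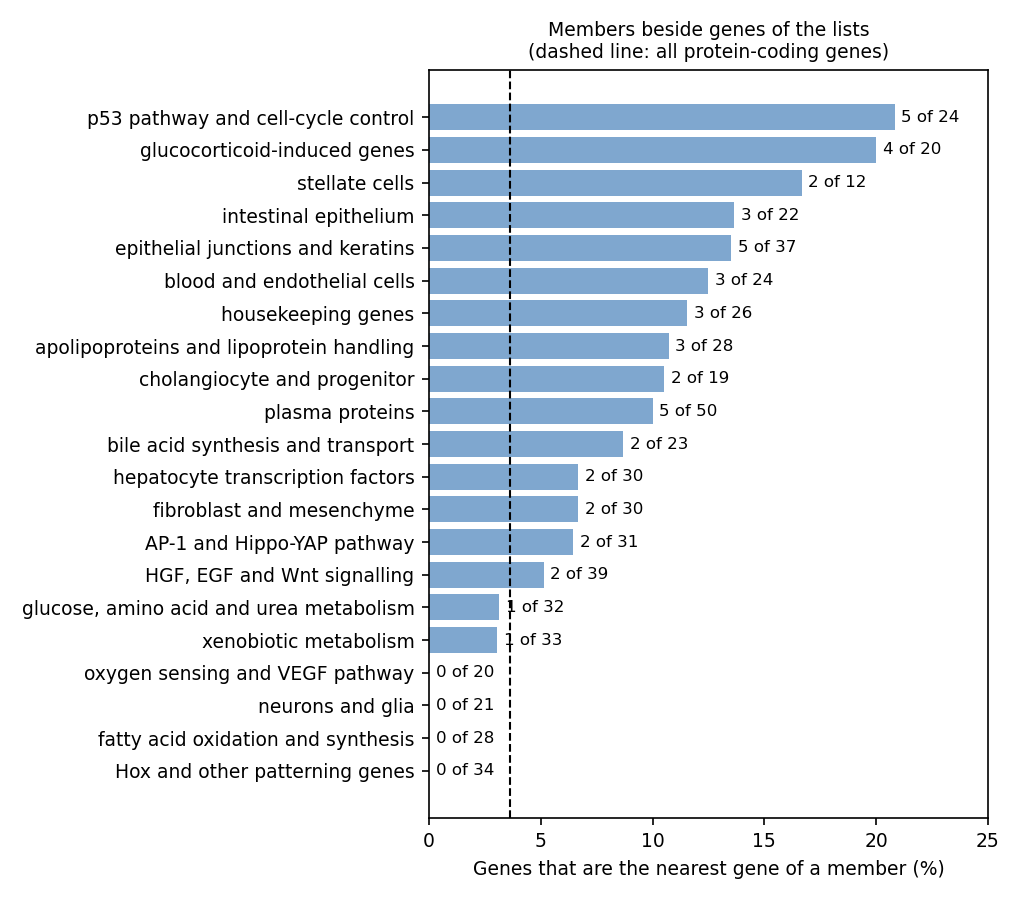
Share of genes in each of the 21 lists that are the nearest gene of a region 1 to 10 kb away, with the counts; the dashed line marks 3.62%, the share of all protein-coding genes. The p53 list (5 of 24) and the glucocorticoid list (4 of 20) stand side by side at the top, and 4 lists have 0. With every gene within 10 kb counted, the glucocorticoid list has 5 of 20 and the p53 list 5 of 24, against 4.40% of all genes. With summits scoring 10 or more, each of these lists has 2 genes. At 1 to 5 kb the glucocorticoid list has 1 and the p53 list 2.

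By gene family, taken from symbol prefixes after the data had been seen, solute carriers had 15 of 375, zinc finger proteins named Zfp 13 of 397, ABC transporters 1 of 50 (Abcc4), cytochromes P450 2 of 99 (Cyp2s1 and Cyp2f2) and serpins 2 of 63 (Serpina3n and Serpinb9e). Olfactory receptors had 5 of 1110 (0.450%) and vomeronasal receptors 6 of 353 (1.70%). Solute carriers, at 4.0%, were above the 3.62% of all genes. So were connexins (2 of 20), keratins (3 of 53), histones (5 of 97), collagens (2 of 44) and potassium channels (4 of 94). Rab GTPases (4 of 69), protein phosphatase subunits (4 of 77) and proteins of the Tmem series (11 of 238) were also above it. Solute carrier organic anion transporters had 1 of 14, again above it. Below it were claudins (1 of 35), ribosomal proteins (1 of 97) and the other families named here. Zinc finger proteins had 3.27%, serpins 3.17%, cytochromes P450 2.02% and ABC transporters 2.0%.

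Some genes had further shared regions. Of the 782 nearest genes, 233 (29.8%) also had a shared region inside the gene or within 1 kb of it, against 18.8% of the other 20849 protein-coding genes. Their median length was 23.5 kb, against 17.1 kb, and the part of length in this difference was not tested. Another shared region lay within 5 kb of 96 members (11.3%), against 7.77% of all shared regions, and another member within 5 kb of 76.

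Smg1, a kinase of RNA surveillance, had 3 regions before its start, at 6275 bp (47.3 in replicate 1 and 29.1 in replicate 2), 8025 bp (12 and 15.4) and 8425 bp (9.54 and 6.63). Zfp697 also had 3 before its start, at 2338 bp (19.9 and 19.7), 7330 bp (5.66 and 8.03) and 7917 bp (14 and 17.2). At Gm5148, scores of the 3 regions ran from 4.98 to 9.25 in replicate 1 and from 5.33 to 9.23 in replicate 2. In each of these genes, 1 region scored higher than the others in both replicates.

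More than 1 protein-coding gene lay within 10 kb of 157 regions (18.6%), and 3 or more within 10 kb of 19, so the nearest gene is not the only candidate neighbour there. After Atp4b and Tuba8, the best-ranked of these were a region among the histone genes H2bc11, H4c9 and H2ac11 (30.3 in replicate 1 and 28.8 in replicate 2), one between Mettl7b and the integrin gene Itga7 (29.4 and 28.2), and one beside Gsc2, Ess2 and Slc25a1 (28.1 and 32.6). Counting every gene within 10 kb raised the number of genes with a region from 782 to 951.

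As a ratio, the replicates differed most at Inf2, an actin regulator, where a region 1098 bp before the start scored 28.1 in replicate 1 and 5.90 in replicate 2, a ratio of 4.77. Nedd4l (16.9 and 4.59) and Far2 (15.6 and 4.44) followed. In the other direction, Cfap410 had 2.80 and 10.6, Slc24a3 7.60 and 25.7, and Igdcc3 8.26 and 27.1. All 6 have a summit of each replicate within 100 bp, as the choice of regions requires of every member. The widest chains, at Cacnb3 and Ice2, spanned 101 bp.

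The limits of the choice cut through a continuous range of distances. At the near limit, the members closest to it were at Tln1 (1007 bp, 12.4 in replicate 1 and 11.9 in replicate 2), Gsdmd (1019 bp) and Plscr2 (1021 bp), and the shared regions just short of it were at Vash2 (1000 bp, 3.16 and 3.12), Lrp1 (996 bp) and Rap2a (994 bp). At the far limit, Ankrd17 (9996 bp), Tiparp (9994 bp) and Rybp (9987 bp) were members, while Apob, the main protein of low-density lipoprotein (10009 bp, 14.5 and 19.1) and Tex10 (10086 bp, 16.6 and 9.54) were not.

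Chromosome X held 17 of the 846 regions, which were 11.6% of its 147 shared regions and 17.6 per 1000 of its protein-coding genes. The highest replicate 1 scores there were those of Gjb1 before its start and of Tceal9 (20.1 in replicate 1 and 13.6 in replicate 2). Members per 1000 protein-coding genes ranged on the autosomes from 26.7 on chromosome 11 to 64.1 on chromosome 3, with a median of 40.3, and the share of members among shared regions from 7.47% on chromosome 5 to 11.9% on chromosome 6.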

How the data were processed

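ChIL-seq summits for Hnf4a were deposited for both libraries of iHepCs. Per the submitters' processing notes, the tools were MACS2 2.2.9.1, HISAT2 2.0.5 and fastp 0.23.4, with build mm10; per the peak names, the q threshold was 0.01. Each list was called on its own library, and the authors' score is the −log10 q-value of each 1-bp summit. Use of a control library, duplicate removal and read depth are not given in the sources used here, so scores only rank and describe regions.

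Genes came from the RefSeq table of GRCm38.p6, and strand from the RefSeq table of gene starts. A region's score in a replicate is that of its best summit. Named regions followed fixed rules: the best worse ranks, the regions at the distance limits, up to 5 per list, the largest replicate ratios, several regions per gene, regions between genes, chromosome X and the widest chains. Others are marked, and a few regions that these rules name are not reported here. The members and lists were chosen with earlier results of these data known. Of 586 list entries, 1 was not matched. No test was run, since both libraries form 1 group. The planned motif search at all regions needs a genome sequence and was not run; start windows were searched instead, chosen after seeing the data. Scripts were tested on simulated data. Python 3.11.15, numpy 2.4.6, pandas 2.3.3 and scipy 1.17.1 were used. Alternatives covered chain distance, score, distance band, gene types and each replicate alone.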

Additional observations from a re-analysis of the deposited data

How the results depend on the processing

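No paired analysis was possible because both libraries form 1 group. The number of regions, 846, became 277 with summits scoring 10 or more, 460 with the top 10000 summits of each replicate and 454 at 1 to 5 kb, and ran from 1977 to 2288 with 1 replicate alone. With chain distances of 50 and 200 bp, scores of 5 or more, 2 to 10 kb or all gene types, it stayed within 1.5 times. The share of shared regions, 9.22%, was 8.94% with scores of 10 or more, 7.63% at 2 to 10 kb, 4.95% at 1 to 5 kb and 12.8% with all gene types, and 9.30% to 9.50% with 1 replicate alone. The start side held 56.4% with scores of 10 or more, 57.0% with the top 10000 summits, 54.4% at 1 to 5 kb, 49.7% with all gene types and 53.8% to 54.9% with 1 replicate alone. List genes with a region, 45, numbered 18, 29 and 24 with scores of 10 or more, the top 10000 summits and 1 to 5 kb, and 90 to 96 with 1 replicate alone. The median score in replicate 1 was 10.2 and 9.46 with chain distances of 50 and 200 bp, 10.7 and 16.4 with scores of 5 or more and 10 or more, 13.3 with the top 10000 summits, 9.97 at 2 to 10 kb, 9.55 at 1 to 5 kb, 9.91 with all gene types and 7.46 alone. That in replicate 2 was 9.83 and 9.14, 10.3 and 16.0, and 12.8 in the first 5 of these, and 6.63 alone. Higher score limits raise these medians by construction; the cause of the other shifts was not tested. Of 210 recomputed counts for single lists, 137 stayed within 1.5 times. Every member held 1 summit of each replicate, so that alternative changed nothing; the alternatives for the motif window were not run. Read depth is unknown, so weak sites missing from 1 list cannot be told from absent ones.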
